A study of Mus musculus with 27 samples.

Results

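Heat shock chaperones were followed as 10 genes, Hspa1a, Hspa1b, Hspa8, Hsph1, Dnajb1, Bag3, Hsp90aa1, Hspb1, Hspd1 and Hspe1, of 18193 genes measured. The genes were chosen by name, with earlier results of these data known. Together they had 23 probe sets annotated to one of these symbols alone. The brightest of each gene by mean log2 over 27 arrays was used, and the others served as a check. All 10 passed the filter on dim genes, as did 15711 genes in all. The cells were KUSA4b10, a mouse line of marrow stromal cells. They received PTH(1–34), an N-terminal fragment of parathyroid hormone, at 10 nM, PTHrP(1–141), a peptide of parathyroid hormone-related protein, at 20 nM, or no peptide, and RNA was taken at 1, 6 or 24 h. Each of these 9 groups had 3 arrays. Ligand, peptide length and dose cannot be told apart when PTHrP is set against PTH, and the cells are a single line in culture. The labels do not say whether the replicates came from separate cultures. The p-values therefore reflect how far these samples spread, and that spread may be technical.

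Heat shock proteins hold unfolded proteins in solution, help them fold and pass them on for degradation. The cytosolic Hsp70 proteins do this in cycles of ATP binding and hydrolysis. J proteins such as Dnajb1 deliver substrate and trigger hydrolysis, and exchange factors such as Hsph1 and Bag3 release the bound nucleotide. Hsp90 acts later, on kinases and receptors near their native state, Hspb1 is a small ATP-independent holder of unfolding proteins, and Hspd1 with its lid Hspe1 forms the folding chamber of the mitochondrial matrix. Heat shock factors bind inverted repeats of a short sequence unit before many of these genes. PTH and PTHrP act on osteoblast lineage cells through the receptor encoded by Pth1r and cyclic AMP.

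The sequences before the start sites of 6 members are shown. Bag3, Hsph1, Dnajb1 and Hspb1 passed against untreated cells in the comparisons described next, as did Hspa8, and Hspa1a and Hspa1b spread most between arrays. They are the 250 bases before the annotated start, from RefSeq on GRCm38.p6, and capitals mark matches to TTCNNGAA or GAANNTTC, each a pair of heat shock element units. Both patterns read the same on either strand and can overlap by 3 bases. Hspa1a and Hspa1b lie on the minus strand of chromosome 17 at chr17:34972157-34972406 and chr17:34959239-34959488. Hsph1 lies at chr5:149636337-149636586 on the minus strand, Hspb1 at chr5:135887669-135887918 on the plus strand Bag3 at chr7:128523333-128523582 and Dnajb1 at chr8:83607925-83608174, both on the plus strand.
Hspa1a: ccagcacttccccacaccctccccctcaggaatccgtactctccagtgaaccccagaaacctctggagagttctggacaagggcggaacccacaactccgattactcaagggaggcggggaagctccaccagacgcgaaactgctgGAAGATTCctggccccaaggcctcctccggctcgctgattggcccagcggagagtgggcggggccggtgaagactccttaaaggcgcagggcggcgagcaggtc
Hspa1b: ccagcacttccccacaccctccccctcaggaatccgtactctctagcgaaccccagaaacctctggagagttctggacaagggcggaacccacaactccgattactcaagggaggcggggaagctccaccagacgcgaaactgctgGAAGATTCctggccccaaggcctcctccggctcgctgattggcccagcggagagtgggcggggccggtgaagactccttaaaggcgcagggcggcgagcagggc
Hsph1: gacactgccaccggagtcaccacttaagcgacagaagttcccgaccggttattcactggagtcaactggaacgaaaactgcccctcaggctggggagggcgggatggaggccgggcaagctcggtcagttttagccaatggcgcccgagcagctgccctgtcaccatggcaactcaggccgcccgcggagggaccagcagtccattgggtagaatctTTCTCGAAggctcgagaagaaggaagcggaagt
Hspb1: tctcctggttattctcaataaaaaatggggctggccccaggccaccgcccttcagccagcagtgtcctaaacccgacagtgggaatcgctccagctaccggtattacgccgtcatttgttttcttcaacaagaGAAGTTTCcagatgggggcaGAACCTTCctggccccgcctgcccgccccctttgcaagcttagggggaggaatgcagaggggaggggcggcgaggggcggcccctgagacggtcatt
Bag3: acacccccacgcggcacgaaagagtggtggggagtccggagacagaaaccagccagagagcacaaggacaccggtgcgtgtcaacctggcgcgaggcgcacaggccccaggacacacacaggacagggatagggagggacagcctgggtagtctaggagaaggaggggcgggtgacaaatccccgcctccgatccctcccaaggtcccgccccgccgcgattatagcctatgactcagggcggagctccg
Dnajb1: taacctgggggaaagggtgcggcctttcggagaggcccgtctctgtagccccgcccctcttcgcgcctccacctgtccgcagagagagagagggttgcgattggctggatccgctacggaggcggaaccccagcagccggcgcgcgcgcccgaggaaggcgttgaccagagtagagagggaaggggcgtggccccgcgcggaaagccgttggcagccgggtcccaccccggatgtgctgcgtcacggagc
The Hspa1a and Hspa1b stretches differ at 3 of 250 bases, and each holds 1 match, which begins 104 bases before the start site. Hsph1 has its match 33 bases before the start, and Hspb1 has a pair that begin 117 and 97 bases before it. The printed Bag3 and Dnajb1 windows hold no match, which says only that these letters are not in them. A match of this kind stood in at least 1 annotated window of 6 of the 8 members with a sequence here and in 12.8% of 32851 windows of the same length before annotated starts. The count is by gene, over 11 windows, and the share is by window, so they are not like for like. Nor are the 6 independent, as Hspa1a and Hspa1b are near copies and Hspd1 and Hspe1 share their matches. A run of 3 units, TTCNNGAANNTTC or GAANNTTCNNGAA, was found before Hspe1 and before 1 of the annotated starts of Hspd1, its neighbour on the other strand, where it is the same stretch of DNA, and in 0.466% of all windows. These matches are descriptions of sequence, and binding was not measured. Hspa8 and Hsp90aa1 are named here without sequence.

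The median linear intensity of an array was 83.03 to 90.87. Log2 values of arrays of a group correlated across probe sets at 0.993 or more in 8 groups. In the PTHrP group at 1 h, replicate 3 was set apart from the others, with correlations down to 0.984. Of the osteoblast lineage markers, Col1a1 (13.69 to 14.80, log2), Col1a2 (14.19 to 14.60) and Alpl (11.13 to 13.00) were bright. Pth1r read 9.99 to 11.39, Ibsp 8.95 to 13.20, Sp7 8.03 to 11.12 and Dmp1 3.73 to 9.55. Ptprc and Itgam of blood cells and macrophages and Pecam1 and Cdh5 of endothelium lay between 3.89 and 5.54. Other genes of those lists were brighter, with Csf1r at 7.58 to 8.21, Cd3e at 6.88 to 7.67, Lyz2 at 6.81 to 7.31 and Kdr at 6.41 to 7.22. The adipocyte markers Adipoq, Fabp4 and Cebpa were also bright, from 9.15 to 12.09, and Lep was not. The summed linear intensity of 7 of 10 osteoblast lineage markers was 36041 to 39055 with PTH, 41743 to 49812 with PTHrP and 57738 to 58931 in untreated cells at 24 h. At 6 h it was 62265 to 64015 with PTH, 65075 to 69263 with PTHrP and 71746 to 74169 in untreated cells, so the treated arrays were the lower ones at both times. The sum is linear, so Col1a1 and Col1a2, the brightest of the 7 with median log2 values of 14.67 and 14.51, weigh most in it. The sum of 4 of 5 adipocyte markers was 2384 to 3688 with PTH, 2351 to 5408 with PTHrP and 4032 to 5978 in untreated cells at 24 h, and 4541 to 5235, 5609 to 8101 and 4594 to 6575 at 6 h. For Actb, the 3' end read higher than the 5' end by 0.42 ± 0.01 with PTH, 0.44 ± 0.01 with PTHrP and 0.38 ± 0.01 in untreated cells at 24 h, and by 0.34 ± 0.01, 0.30 ± 0.05 and 0.25 ± 0.05 at 6 h (log2, SD, n = 3). The part of the marker genes and of this ratio in the chaperone results was not tested. In these bulk samples fewer cells of a type and less RNA per cell cannot be told apart.

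**Figure D1:**
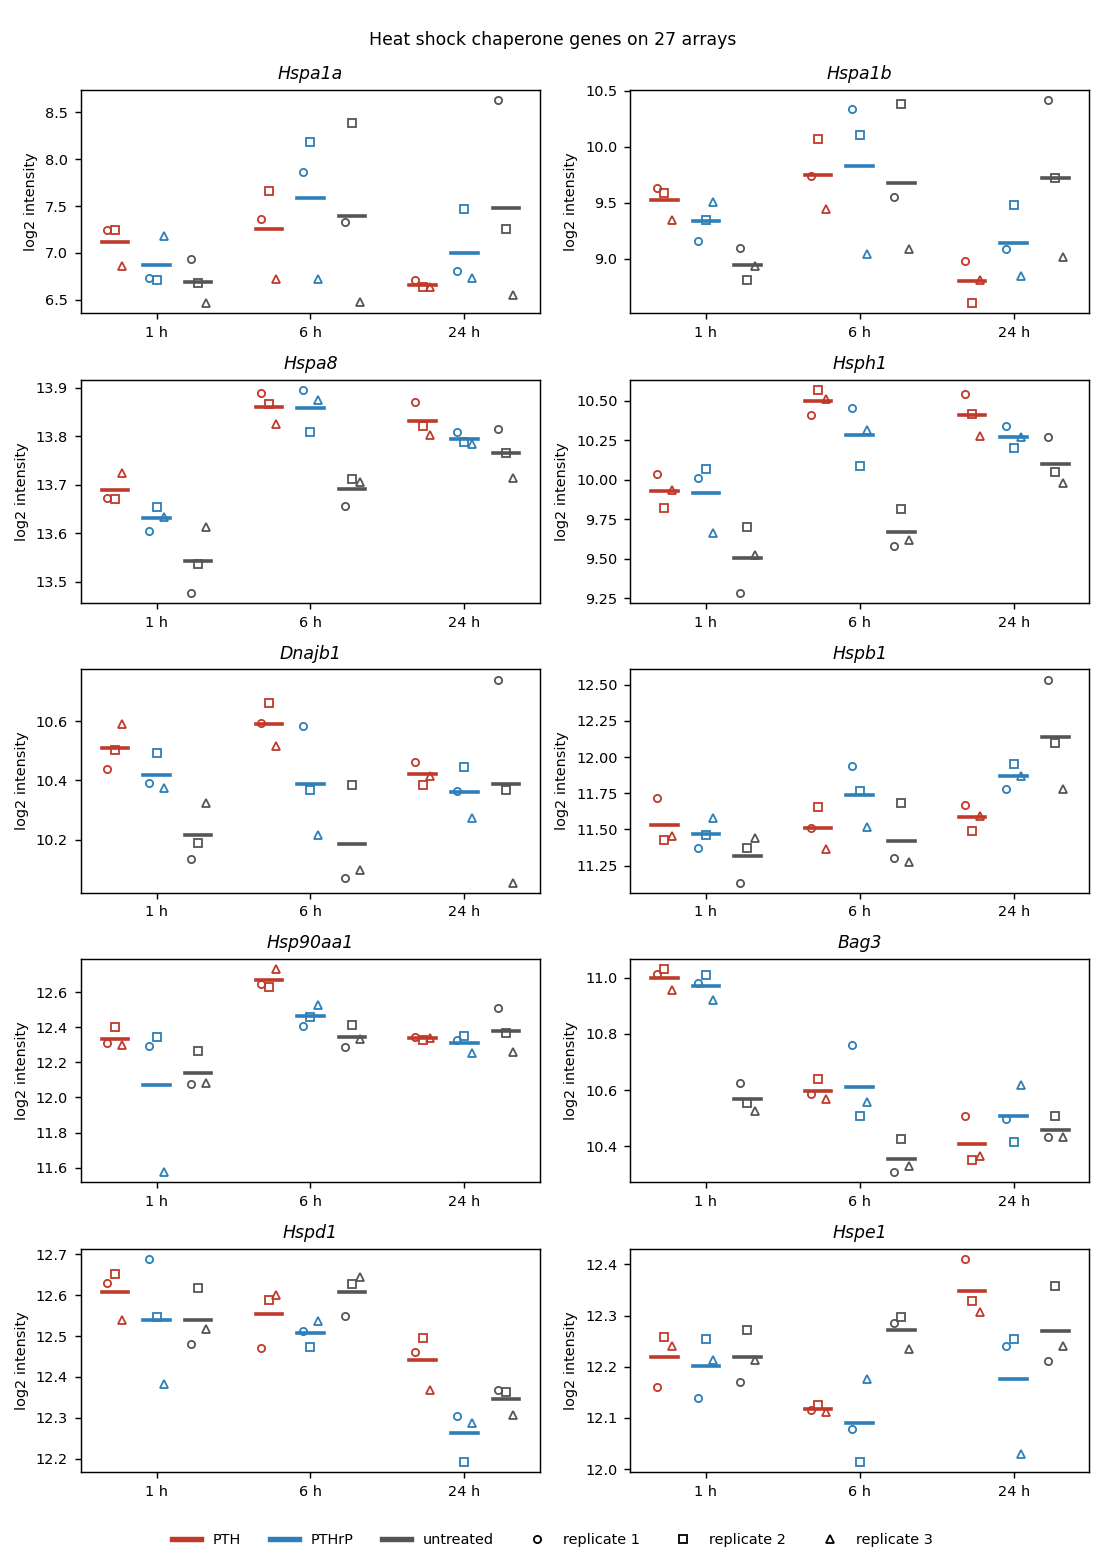
Log2 intensity of each of the 10 chaperone genes on all 27 arrays, with PTH, PTHrP and untreated groups side by side at 1, 6 and 24 h. Symbols give the replicate number within a group, short lines are group means, and the y axes differ between genes. Bag3 stands highest with either ligand at 1 h, Hsph1 stands above untreated cells with either ligand at 6 h, and the Hspa1a and Hspa1b arrays of several 6 and 24 h groups are spread over more than 1 log2 unit.

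Among the Hsp70 partners, Bag3 rose within 1 h of either ligand and Hsph1 gave the largest rise of the 10 genes at 6 h. Bag3 encodes an exchange factor that links Hsp70 to selective autophagy. At 1 h its log2 intensity was 11.01, 11.03 and 10.95 with PTH and 10.98, 11.01 and 10.92 with PTHrP, against 10.62, 10.55 and 10.52 in untreated cells. All treated arrays lay above all untreated arrays, and the ligands overlapped each other. The log2 fold change was 0.43 ± 0.07 with PTH (SE, limma, adjusted p = 0.000308) and 0.40 ± 0.07 with PTHrP (adjusted p = 0.000814), or 1.35-fold and 1.32-fold. Both calls were kept with any 1 of their arrays left out, but with the 6 arrays of the PTHrP comparison fitted alone its adjusted p was 0.102.

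By 6 h Bag3 stood at 10.59, 10.64 and 10.57 with PTH and at 10.76, 10.51 and 10.56 with PTHrP, against 10.31, 10.43 and 10.33 in untreated cells. The treated arrays again lay above the untreated ones. The differences were 0.24 ± 0.07 (adjusted p = 0.00913) and 0.26 ± 0.07 (adjusted p = 0.00952), and the PTHrP call was lost without PTHrP replicate 1 (0.18, adjusted p = 0.0824). Bag3 in untreated cells was itself lower at 6 h than at 1 h, with a difference of -0.21 ± 0.07 that did not pass (limma adjusted p = 0.135). The 6 h means of 10.60 with PTH and 10.61 with PTHrP were near the untreated 1 h mean of 10.57. At 24 h the groups overlapped, with differences of -0.05 ± 0.07 and 0.05 ± 0.07 that did not pass. Over the 9 groups the mean of Bag3 was highest with PTH at 1 h, followed by PTHrP at 1 h, and the arrays of these groups overlapped each other but no array of the group ranked next.

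Hsph1 encodes an Hsp110 protein, the main nucleotide exchange factor of cytosolic Hsp70. At 6 h it stood at 10.41, 10.57 and 10.51 with PTH and at 10.45, 10.08 and 10.31 with PTHrP, against 9.58, 9.81 and 9.62 in untreated cells. Every treated array exceeded every untreated array. The log2 fold change was 0.83 ± 0.12 with PTH (adjusted p = 4.95e-06) and 0.61 ± 0.12 with PTHrP (adjusted p = 0.000369), or 1.77-fold and 1.53-fold. These calls were kept with any 1 of their arrays left out, and the second Hsph1 probe set gave 0.77 ± 0.15 and 0.64 ± 0.15, both past the threshold.

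At 1 h Hsph1 already stood at 10.04, 9.82 and 9.94 with PTH and at 10.01, 10.07 and 9.66 with PTHrP, against 9.28, 9.70 and 9.52 in untreated cells. PTH arrays lay above the untreated ones, while PTHrP replicate 3 fell among them. The differences of 0.43 ± 0.12 and 0.41 ± 0.12 missed the threshold (adjusted p = 0.0674 and 0.0861). The labels number the replicates but state no pairing. In an alternative added after seeing the data, the number was a block for PTHrP and untreated cells at 1 h. The PTHrP difference then passed (adjusted p = 0.0489). It also passed without PTHrP replicate 3, the array that stood apart (0.54, adjusted p = 0.00692), or without untreated replicate 2 (0.51, adjusted p = 0.0392). The PTH difference passed without untreated replicate 2 (0.53, adjusted p = 0.0304). At 24 h the differences were 0.31 ± 0.12 (adjusted p = 0.092) and 0.17 ± 0.12 (adjusted p = 0.574).

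Dnajb1, an Hsp40 J protein that delivers substrates to Hsp70, rose with PTH at 6 h. Its arrays read 10.59, 10.66 and 10.52 with PTH and 10.58, 10.37 and 10.21 with PTHrP, against 10.07, 10.38 and 10.10 in untreated cells. Only the PTH arrays cleared the untreated ones. The difference was 0.41 ± 0.12 with PTH (adjusted p = 0.011) and 0.20 ± 0.12 with PTHrP (adjusted p = 0.26). The PTH call was lost without untreated replicate 1 (0.35, adjusted p = 0.0629) or replicate 3 (0.36, adjusted p = 0.0511), while the other Dnajb1 probe set gave 0.41 ± 0.09 with an adjusted p of 0.000723. At 1 h Dnajb1 lay above untreated cells on all arrays of both ligands, by 0.29 ± 0.12 and 0.20 ± 0.12, without passing (adjusted p = 0.395 and 0.618).

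Hspa8, the constitutive cytosolic Hsp70, changed little and varied little. At 6 h it stood at 13.89, 13.87 and 13.83 with PTH and at 13.90, 13.81 and 13.87 with PTHrP, against 13.66, 13.71 and 13.71 in untreated cells. The arrays of both ligands lay above the untreated ones and overlapped each other. The spread within groups, 0.04 (pooled SD), was below that of all but 0.356% of genes. The probe set used was bright, with a mean log2 of 13.74, above that of 99.7% of genes tested. The part of that brightness in the small changes and spread was not tested. The difference was 0.17 ± 0.05 with either ligand (adjusted p = 0.0192 with PTH and 0.0274 with PTHrP). With PTH the call was kept in 3 of the 6 fits that left out 1 array and with PTHrP in 1 of 6, and with the compared arrays alone the adjusted p-values were 0.072 and 0.119. The probe sets of Hspa8 did not move alike. A pair gave 0.18 ± 0.07 and 0.22 ± 0.09 with PTH at 6 h without passing, and another gave -0.42 ± 0.20 with PTH and -0.72 ± 0.20 with PTHrP (adjusted p = 0.129 and 0.0106), so that the mean of all Hspa8 probe sets differed by 0.04 and -0.05 and did not pass.

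Hspa1a and Hspa1b, the neighbouring genes of stress-inducible Hsp70, passed in no comparison with a ligand in the fit used throughout. They were among the genes that varied most between arrays of a group. The coding sequences are nearly identical, so the probe sets may read both transcripts. The pooled SD within groups was 0.60 for Hspa1a and 0.44 for Hspa1b, against a median of 0.127 over all genes, and 99.99% and 99.89% of genes had a smaller one. In untreated cells Hspa1a read 7.33, 8.38 and 6.47 at 6 h and 8.63, 7.25 and 6.55 at 24 h, a range of 3.76-fold and 4.23-fold between arrays of a group. With PTH at 24 h it read 6.71, 6.64 and 6.63, a range of 1.06-fold. At 6 h replicate 3 was the lowest for both genes in all 3 groups, in PTHrP cells 6.72 against 7.87 and 8.19 in replicates 1 and 2 for Hspa1a.

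At 24 h Hspa1b stood at 8.98, 8.60 and 8.81 with PTH and at 9.08, 9.48 and 8.84 with PTHrP, against 10.42, 9.72 and 9.01 in untreated cells. The PTH arrays lay below the untreated ones, narrowly at the nearest pair, and PTHrP arrays overlapped them. The differences were -0.92 ± 0.32 (adjusted p = 0.0615) and -0.58 ± 0.32 (adjusted p = 0.42). The PTH difference was -0.57 (adjusted p = 0.357) without untreated replicate 1 and -1.27 (adjusted p = 0.012) without untreated replicate 3, so it rests on which untreated arrays are used. Another Hspa1b probe set gave -0.89 ± 0.28 (adjusted p = 0.0389), and Hspa1a differed by -0.81 ± 0.43 (adjusted p = 0.279). At 1 h Hspa1b lay above untreated cells on all arrays, at 9.64, 9.58 and 9.35 with PTH and at 9.15, 9.34 and 9.50 with PTHrP, against 9.10, 8.81 and 8.93. The differences of 0.58 ± 0.32 and 0.39 ± 0.32 did not pass. With the compared arrays alone the PTH difference passed (limma adjusted p = 0.00866). The SE draws on the spread in all 9 groups. The SD of Hspa1b was 0.15 with PTH and 0.14 in untreated cells at 1 h, and 0.66 and 0.70 in untreated cells at 6 and 24 h.

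Hsp90aa1, the stress-inducible cytosolic Hsp90, was highest with PTH at 6 h. It stood there at 12.65, 12.63 and 12.73, and at 12.41, 12.46 and 12.53 with PTHrP, against 12.29, 12.41 and 12.33 in untreated cells. No PTH array overlapped either of the other groups. The difference of 0.32 ± 0.12 fell at the threshold without passing it (adjusted p = 0.050025). It passed with the compared arrays alone, array median removed, cyclic loess, the stricter filter, array weights, the intensity trend and the replicate block (adjusted p between 0.00251 and 0.0443). It did not pass with quantile normalization, no filter or the mean of all probe sets (adjusted p between 0.0564 and 0.132), nor in any of the 6 fits without 1 array. With PTHrP it was 0.12 ± 0.12 (adjusted p = 0.549). At 1 h PTHrP replicate 3 read 11.57, apart from 12.29 and 12.35 in replicates 1 and 2, and the difference there was -0.07 ± 0.12.

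Hspb1, the small heat shock protein Hsp27, fell relative to untreated cells with PTH at 24 h. It stood at 11.67, 11.49 and 11.59 with PTH and at 11.78, 11.95 and 11.87 with PTHrP, against 12.54, 12.09 and 11.78 in untreated cells. PTH arrays lay below the untreated ones and PTHrP arrays overlapped the lowest of them. The differences were -0.55 ± 0.15 (adjusted p = 0.0123) and -0.27 ± 0.15 (adjusted p = 0.422). Without untreated replicate 1 the PTH difference was -0.35 (adjusted p = 0.128), without PTH replicate 2 it was -0.51 (adjusted p = 0.0535), and with the compared arrays alone the adjusted p was 0.0534. The second Hspb1 probe set gave -0.59 ± 0.17 (adjusted p = 0.0212).

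Hspd1 and Hspe1, the mitochondrial chaperonin and its lid, passed in none of the 6 comparisons with untreated cells in the fit used throughout. At 6 h Hspe1 read 12.12, 12.13 and 12.11 with PTH and 12.08, 12.01 and 12.18 with PTHrP, against 12.29, 12.30 and 12.24 in untreated cells. Both treated groups lay below the untreated one, by 0.15 and 0.18 log2 units, with adjusted p-values of 0.089 and 0.0537. The PTH difference passed with quantile normalization, array weights or the intensity trend (limma adjusted p between 0.0286 and 0.0400). The PTHrP difference passed with the array median removed, the stricter filter, array weights or the trend (adjusted p between 0.0201 and 0.0498). It also passed without PTHrP replicate 3 (adjusted p = 0.0354), and neither passed in the other alternatives. At 24 h Hspd1 read 12.30, 12.19 and 12.29 with PTHrP against 12.37, 12.36 and 12.31 in untreated cells, and 12.46, 12.49 and 12.37 with PTH. These 24 h differences were -0.08 ± 0.07 and 0.10 ± 0.07 and did not pass.

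**Figure D2:**
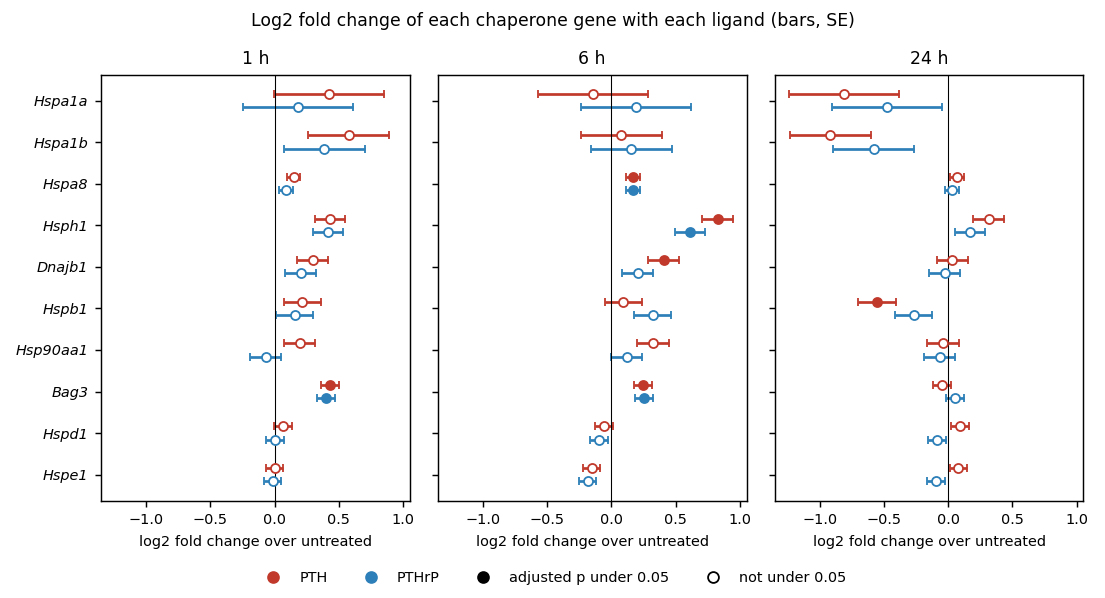
Log2 fold change over untreated cells of the same time (x axis) for each chaperone gene (y axis) with PTH (red) and PTHrP (blue), 3 arrays a group, bars giving the SE of the limma fit and filled points an adjusted p under 0.05. Bag3 is filled at 1 and 6 h for both ligands, Hsph1 and Hspa8 at 6 h for both, and Dnajb1 at 6 h and Hspb1 at 24 h for PTH.

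Counted over the 10 genes, 1 rose with PTH at 1 h, where 1.44% of all genes tested rose and 1.74% passed in either direction, and 1 rose with PTHrP, where 1.57% rose and 1.81% passed. At 6 h 4 rose with PTH, where 11.4% of all genes rose, 17.9% fell and 29.3% passed, and 3 with PTHrP, where 8.7% rose, 12.2% fell and 20.9% passed. At 24 h 1 fell with PTH, where 5.69% of all genes rose, 5.96% fell and 11.6% passed, and 0 passed with PTHrP by limma, where 3.09% of all genes rose, 3.02% fell and 6.1% passed and 0 of the 10 had an unadjusted p under 0.05. All PTH arrays lay above all untreated arrays for 6 of the 10 genes at 1 h, against 7.41% of all genes, and all PTHrP arrays for 3, against 9.92%. None lay wholly below at 1 h, where 9.85% of all genes did with PTH and 2.85% with PTHrP. At 6 h 5 lay above with PTH, against 18.3%, and 3 with PTHrP, against 18.9%, while Hspe1 lay below with PTH, against 25.6%, and Hspd1 and Hspe1 with PTHrP, against 21%. At 24 h Hsph1 and Hspd1 lay above with PTH, against 15.1%, and Hspa1b and Hspb1 below, against 11.8%. With PTHrP none lay above, against 13.7%, and Hspd1 lay below, against 12.7%. Some of these 24 h gaps were narrow at the nearest arrays. For Hspd1 they read 12.3683 with PTH against 12.3675 in untreated cells, and 12.3048 with PTHrP against 12.3069. For Hsph1 they read 10.279 with PTH against 10.270. The median difference of the 10 genes was 0.26 with PTH and 0.17 with PTHrP at 1 h, 0.13 and 0.18 at 6 h, and -0.003 and -0.07 at 24 h, and the median of all genes tested was between -0.02 and 0.03. Each pair of comparisons at a time shares its untreated arrays.

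PTHrP and PTH were also set against each other. By limma 0 of the 10 genes passed at 1 h, 6 h or 24 h, where 0%, 7.62% and 1.16% of all genes did, and 1, 0 and 2 of the 10 had an unadjusted p under 0.05. At 6 h Hsph1 differed by -0.21, with a 95% interval from -0.46 to 0.03, Dnajb1 by -0.20 (-0.45 to 0.04), and Hsp90aa1 by -0.20 (-0.46 to 0.05). At 24 h Hspb1 differed by 0.29 (-0.02 to 0.59), and at 1 h Bag3 by -0.03 (-0.17 to 0.12). The interval lay below 0 for Hsp90aa1 at 1 h, at -0.26 (-0.52 to -0.01), and at 24 h for Hspd1, at -0.18 (-0.32 to -0.03), and Hspe1, at -0.17 (-0.31 to -0.04). Their limma adjusted p-values over all genes were 0.926, 0.333 and 0.319. For Hsp90aa1 at 1 h, PTHrP replicates 1 and 2 read 12.29 and 12.35, beside 12.31, 12.40 and 12.30 with PTH. PTHrP replicate 3, the array set apart from its group, read 11.57. The PTHrP arrays lay wholly below the PTH arrays for Hspa8 at 1 h, as for 0.757% of all genes, for Hsp90aa1 at 6 h, as for 10.6%, and for Hspd1 and Hspe1 at 24 h, as for 6.44%. They lay wholly above for Hspa1a and Hspb1 at 24 h, as for 5.95%. For Hspa1a the interval at 6 h ran from -0.55 to 1.22, so differences of more than 1 log2 unit lie within it.

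The change of the PTH effect with time passed for 3 of the 10 genes between 6 and 24 h, all lower, where 7.82% of all genes were lower and 20.4% passed. Hsph1 changed by -0.51 ± 0.17 (adjusted p = 0.0292), Hspb1 by -0.65 ± 0.21 (adjusted p = 0.027) and Bag3 by -0.29 ± 0.10 (adjusted p = 0.0368). These calls were kept in 6, 7 and 4 of the 12 fits that left out 1 array. Between 1 and 6 h 0 of 10 passed by limma, where 18.5% of all genes did, and 1 of 10 had an unadjusted p under 0.05. For PTHrP the corresponding changes passed for 0 of 10 genes in both steps, where 12.2% and 12.1% of all genes passed, and 0 and 2 of 10 had an unadjusted p under 0.05.

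The untreated cells changed with time as well. At 24 h against 1 h 3 of the 10 genes were higher and 1 lower, where 11.6% and 11.5% of all genes were and 23.1% passed, and at 24 h against 6 h 2 were higher and 1 lower, where 12.1% and 11.4% of all genes were and 23.4% passed. Hspb1 read 12.54, 12.09 and 11.78 at 24 h against 11.13, 11.37 and 11.44 at 1 h, without overlap, and had risen by 0.82 ± 0.15 (adjusted p = 0.000143). Hsph1 rose to 10.27, 10.05 and 9.98 at 24 h, against 9.28, 9.70 and 9.52 at 1 h, a difference of 0.60 ± 0.12 (adjusted p = 0.000435). Hspa8 rose by 0.22 ± 0.05 (adjusted p = 0.00333). Hspd1 was lower at 24 h by 0.26 log2 units than at 6 h (adjusted p = 0.00709) and by 0.19 than at 1 h (adjusted p = 0.0491), and the 1 h call was lost in 5 of 6 fits without 1 array. Against 6 h Hspb1 rose by 0.72 ± 0.15 (adjusted p = 0.000556) and Hsph1 by 0.43 ± 0.12 (adjusted p = 0.00839, and 0.0676 without untreated 24 h replicate 1). At 6 h against 1 h 0 of 10 passed by limma, where 2.27% of all genes did, and 3 of 10 had an unadjusted p under 0.05.

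Single arrays led many members at once. Untreated 24 h replicate 1 was the highest array of its group for 8 of the 10 genes and for 37.3% of all genes tested, and replicate 3 was the lowest for 8 and for 30% of all genes. Untreated 6 h replicate 2 was the highest for 9 of the 10 genes and for 29.4% of all genes. PTH 24 h replicate 1 was the highest for 9 and for 50.9% of all genes. In untreated cells at 24 h Dnajb1 spread from 10.06 to 10.74 and Hspb1 from 11.78 to 12.54, in the same array order as Hspa1a and Hspa1b. Bag3 and Hspe1 were the members whose highest array in that group was another one.

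**Figure D3:**
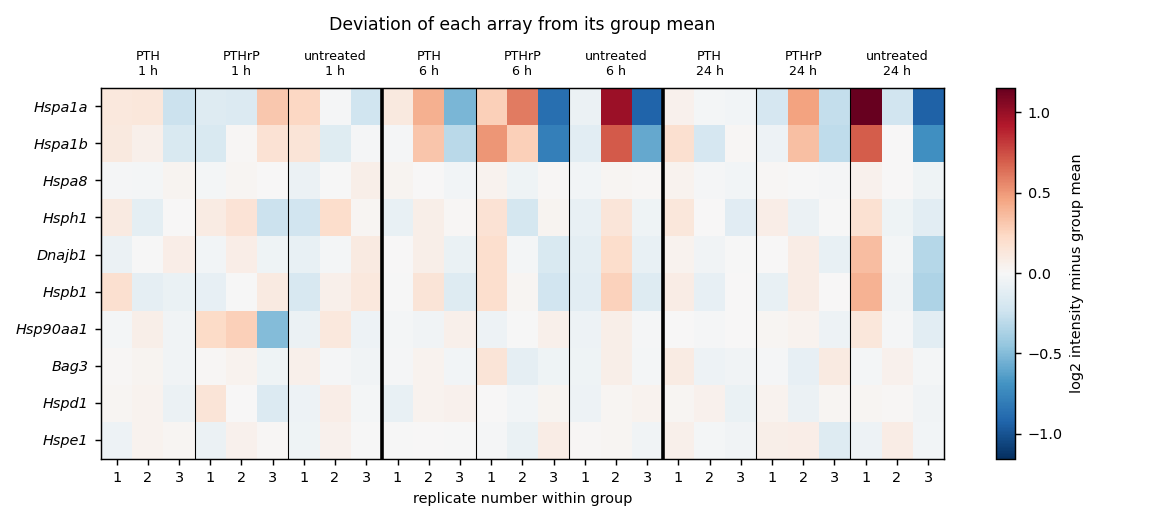
Deviation of each array from the mean of its group in log2 intensity (colour) for the 10 chaperone genes (rows) on 27 arrays, in columns by time, group and replicate number. Strong colours mark Hspa1a and Hspa1b on untreated 6 h replicates 2 and 3, untreated 24 h replicates 1 and 3 and PTHrP 6 h replicate 3, while Hspa8, with a pooled SD of 0.04, is pale throughout.

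Other chaperone genes were described from 6 lists with 77 genes, 74 of them tested. Of 23 further cytosolic chaperones 1 rose with either ligand at 1 h, where 1.44% of all genes rose with PTH and 1.57% with PTHrP. At 6 h 7 were higher with PTH, against 11.4% of all genes, and 2 higher with PTHrP, against 8.7%, which is near the share of all genes, and 1 was lower, against 12.2%. At 24 h 1 rose with PTH, against 5.69%. Their median difference with PTH at 6 h was 0.11, and that of all genes was -0.003. Dnajb2, a J protein rich in neurons, rose by 0.49 ± 0.10 with PTH and 0.45 ± 0.10 with PTHrP at 1 h, and by 1.08 ± 0.10 and 0.88 ± 0.10 at 6 h. Dnajb6, a J protein that restrains aggregation, rose by 0.51 ± 0.10 with PTH at 6 h, with a PTHrP value of 0.13 ± 0.10 that did not pass. Dnaja4, another J protein, rose by 0.24 ± 0.07 with PTH and 0.25 ± 0.07 with PTHrP at 6 h.

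Of 15 cochaperones of Hsp70 and Hsp90, 3 were higher and 4 lower with PTH at 6 h, where 11.4% and 17.9% of all genes were, and 2 were higher and 3 lower with PTHrP, where 8.7% and 12.2% were. Bag2, which like Bag3 binds Hsp70, rose by 0.49 ± 0.09 with PTH at 6 h, with a PTHrP value of 0.11 ± 0.09 that did not pass. Cdc37, which brings kinases to Hsp90, fell there by 0.46 log2 units with PTH and by 0.30 with PTHrP. Ahsa1, the activator of the Hsp90 ATPase, rose by 0.31 ± 0.07 with PTH and 0.39 ± 0.07 with PTHrP at 6 h, and at 24 h by 0.60 ± 0.07 with PTH and 0.65 ± 0.07 with PTHrP. Bag5, another Hsp70 exchange factor, fell by 0.30 log2 units with PTH and by 0.32 with PTHrP at 6 h. Of 5 genes of heat shock factors and their regulators, 0 passed by limma with either ligand at any time, and 1 had an unadjusted p under 0.05 with each ligand at 6 and at 24 h. Hsf1 was not among these 5.

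Of 6 other small heat shock proteins 3 fell with PTH at 6 h, against 17.9% of all genes, and 1 with PTHrP, against 12.2%, and 0 rose. At 24 h 2 fell with PTH, against 5.96%, and 1 with PTHrP, against 3.02%, and 0 rose. Cryab, the alpha B crystallin gene, differed by -1.49 with PTH and -1.14 with PTHrP at 6 h. Its difference at 24 h was -2.29 with PTH (adjusted p = 1.22e-12) and -1.45 with PTHrP (adjusted p = 6.15e-09), and PTHrP cells exceeded PTH cells by 0.83 ± 0.12. Hspb6, a relative of Hspb1, fell with PTH by 0.33 log2 units at 6 h and by 0.43 at 24 h, and its PTHrP differences of -0.11 and -0.27 did not pass. Of 9 further mitochondrial chaperones and proteases 4 were higher with PTH at 6 h, against 11.4% of all genes, and 2 were higher and 1 lower with PTHrP, against 8.7% and 12.2%. Lonp1, a matrix protease, rose by 0.66 ± 0.14 and 0.57 ± 0.14, and Hspa9, the mitochondrial Hsp70, by 0.56 ± 0.12 and 0.35 ± 0.12. Trap1, the mitochondrial Hsp90, fell by 0.22 log2 units with PTH and 0.23 with PTHrP at 24 h.

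Chaperones of the endoplasmic reticulum, which fold secreted proteins, had the highest share of increases of the 6 lists at 6 h with either ligand. There 12 of 16 rose with PTH, against 11.4% of all genes, and 10 with PTHrP, against 8.7%. At 24 h 3 rose with PTH, against 5.69%, while with PTHrP at 24 h 0 passed by limma and 4 had an unadjusted p under 0.05. The median difference at 6 h was 0.54 with PTH and 0.44 with PTHrP, and those of all genes were -0.003 and 0.03. Dnajb9, a J protein of the reticulum, rose by 1.50 ± 0.16 with PTH and 1.01 ± 0.16 with PTHrP. Creld2, a secretory pathway protein induced by stress of the reticulum, rose by 1.47 ± 0.29 and 1.23 ± 0.29, and Sdf2l1 by 1.36 ± 0.30 and 1.17 ± 0.30. The untreated cells that these 6 h differences are set against were themselves lower at 6 h than at 1 h for this list, with a median of -0.37 and 3 of 16 genes called lower, against 1.55% of all genes. Creld2 differed there by -1.20 ± 0.29 and Sdf2l1 by -1.26 ± 0.30. At 24 h against 1 h 15 of the 16 genes were higher in untreated cells, against 11.6% of all genes.

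**Figure D4:**
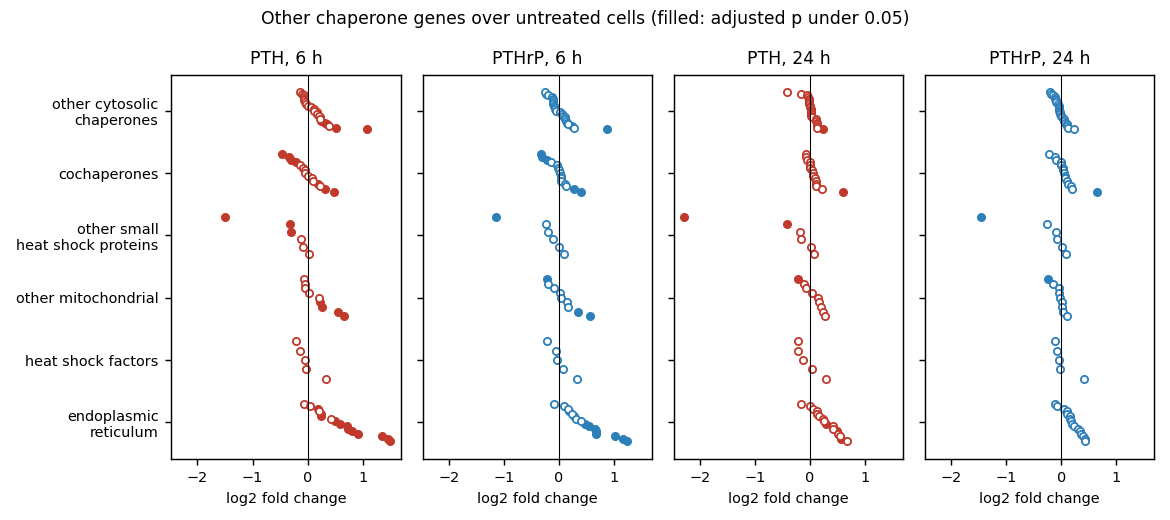
Log2 fold change over untreated cells (x axis) of 74 further chaperone genes by list (y axis) with PTH (red) and PTHrP (blue) at 6 and 24 h, 1 point a gene, filled where the adjusted p was under 0.05. Endoplasmic reticulum genes lie mostly right of 0 at 6 h, with 12 of 16 filled for PTH, and the point farthest left in each panel is Cryab.

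The genes whose group means followed a member most closely were found by Pearson's r over the 9 groups among all genes tested, as a description, since the groups share arrays with every gene. Bag3 was closest to Midn (r = 0.988) and to Fos (r = 0.986), the AP-1 transcription factor. Hsph1 was closest to Necap1 (r = 0.969) and Abhd5 (r = 0.965), Hsp90aa1 to Ccdc47 (r = 0.982) and Atad2b (r = 0.971), and Hspa8 to Ube2z (r = 0.967) and Lpcat2 (r = 0.963). Dnajb1 was closest to Grap (r = 0.952) and Rala (r = 0.943), and Hspb1 to Obsl1 (r = 0.948) and Mtss1 (r = 0.940). Hspd1 was closest to Abhd10 (r = 0.971) and Mybbp1a (r = 0.956), and Hspe1 to Rdh13 (r = 0.953) and Zfp566 (r = 0.906). Outside the members, Hspa1b was closest to Iglon5 (r = 0.938) and Anapc4 (r = 0.934), and Hspa1a to Slfn5os (r = 0.900) and Acpp (r = 0.898). Hspa1a and Hspa1b followed each other at r = 0.938, closer than either of these genes followed Hspa1a.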

How the data were processed

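Total RNA of 27 samples, 3 in each of 9 groups, was read on 1-colour Affymetrix arrays. RMA is named in the submitters' processing notes as the method behind the deposited values, which are linear intensity. The work dates from 2008, and the authors normalized the values anew in 2013. The RMA version is not stated in the labels. RMA pulls array distributions together, so a shift of most transcripts would be hidden, and it compresses differences of dim probe sets.

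Of 45101 probe sets, 34945 had 1 gene symbol in the platform annotation (34741 matched RefSeq by gene ID, 0 symbols updated), 932 had several and 9211 were not listed. Log2 of the deposited intensity was taken, and genes reaching 5 on at least 3 arrays were tested. The limma 3.58.1 functions lmFit and eBayes in R 4.3.3 fitted 9 group means to all arrays (18 residual and 5.54 prior degrees of freedom) for 16 comparisons. Tests were two-sided, with Benjamini-Hochberg adjustment over 15711 genes per comparison and a threshold of 0.05. The number of arrays limits the precision, with a median SE of 0.102 for 2 groups. Errors after a fold change are SE. The fit was tested on simulated data.

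The labels number replicates alike. Deviations from group means of same-numbered arrays had correlations that were all above 0.1 in 1 of the 9 group pairs. This pair was PTHrP and untreated cells at 1 h, and a block for it alone was added after seeing the data. Another alternative used the replicate number as a block over all arrays, including the pairs without such correlations. The fit used throughout had no block. The 10 genes and the lists were chosen with earlier results of these data known. Named genes are the 10, at most 2 called genes with the largest change per list and ligand comparison, and the 2 genes outside the 10 most like each member. A gene so named is given with both ligands, and marker genes are named for the tissue check. Alternatives were quantile normalization, array median removal, cyclic loess, other filters, the mean of all probe sets, array weights, an intensity trend, the compared arrays alone, replicate blocks and leaving out each array. Slide and scan date were not used here.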

Additional observations from a re-analysis of the deposited data

Results flagged for a closer look

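The PTH effect differed between 24 and 6 h for 3 of the 10 genes by a test of the difference itself, with values in log2 units and limma adjusted p-values over all genes. Hsph1 changed by -0.51 (adjusted p = 0.0292), Hspb1 by -0.65 (adjusted p = 0.027) and Bag3 by -0.29 (adjusted p = 0.0368). For Hsph1 the PTH difference was 0.31 at 24 h and 0.83 at 6 h, for Hspb1 -0.55 at 24 h and 0.09 at 6 h, and for Bag3 -0.05 at 24 h and 0.24 at 6 h. In untreated cells at 24 h against 6 h Hsph1 rose by 0.43 (adjusted p = 0.00839) and Hspb1 by 0.72 (adjusted p = 0.000556), and the Bag3 difference of 0.10 did not pass (adjusted p = 0.356). Without untreated 24 h replicate 1 the change was -0.43 for Hsph1 (adjusted p = 0.0939) and -0.45 for Hspb1 (adjusted p = 0.106). Without untreated 24 h replicate 2 the change of Bag3 was -0.27 (adjusted p = 0.0919).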

How the results depend on the processing

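Counts of the 10 genes that passed moved in some comparisons. For PTH at 1 h (1) the count was 2 with the compared arrays alone, with the array median removed, with a stricter filter or with the mean of all probe sets, and 3 with an intensity trend. For PTHrP at 1 h (1) it was 0 with the compared arrays alone, 2 with array weights and 2 with the replicate block for PTHrP and untreated cells. For PTHrP at 6 h (3) it was 6 with array weights. For PTH at 24 h (1) it was 0 with the compared arrays alone and 2 with quantile normalization, the stricter filter, array weights, the trend or the replicate block. For PTHrP against PTH at 6 h (0) it was 1 with array weights. For the change of the PTH effect between 1 and 6 h (0) it was 1 with quantile normalization, cyclic loess or array weights. For the change of the PTHrP effect (0 in each step) it was 1 with array weights between 1 and 6 h. Between 6 and 24 h it was 3 with cyclic loess and 1 with the compared arrays alone, quantile normalization, the stricter filter, array weights or the trend. For untreated cells at 6 h against 1 h (0) it was 1 with cyclic loess, the mean of all probe sets or the trend, and 2 with array weights. Leaving out 1 array gave 1 to 2 for PTH and 1 to 2 for PTHrP at 1 h, 2 to 4 and 1 to 3 at 6 h, and 0 to 2 for PTH at 24 h. It gave 0 to 1 and 0 to 4 for the change of the PTH effect in the earlier and later step, 0 to 1 for the later change of the PTHrP effect, and 3 to 6 and 2 to 4 for untreated cells at 24 h against 1 h and 6 h. The replicate block over all arrays changed 4 of 160 calls of single genes, among them Hspa1b with PTH at 24 h (-0.92, adjusted p = 0.0263). The direction turned for Hspa1b with PTHrP at 6 h under array weights (-0.66) and for Hspa8 with PTHrP at 6 h under the mean of all probe sets (-0.046), and the cause was not tested. With the array median removed the genes that passed with PTH at 6 h were 2360 higher and 2239 lower, against 1789 and 2816 without it. At 24 h with PTH that setting gave 1213 higher and 765 lower genes, where 936 were lower without it, and for the change of the PTH effect between 6 and 24 h cyclic loess gave 1812 higher and 1704 lower, where 1228 were lower without it.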
